A study of Homo sapiens with 30 samples.

Results

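The genes described here are 41 genes of transforming growth factor beta (TGF-beta) signalling, of the extracellular matrix and of the mesenchymal and epithelial cell states. They were selected by name, as the rows of a count table whose Ensembl identifiers map to the listed symbols, and make up 41 of the 60675 gene rows. All 41 passed the filter on low counts. The levels were measured by RNA sequencing in A549, an established human lung carcinoma cell line, 24 h after the start of treatment. The series holds 30 libraries. Vehicle cells (0.1% DMSO in the sample labels, 2% in the series text) gave 3 libraries. The labels do not give the DMSO content of the extract groups, so each comparison with vehicle may also hold a difference in DMSO. Ethanol extracts of the Korean herbal formulas Soshiho-tang and Yijin-tang were each given at 500, 100 and 20 µg/mL, with 3 libraries per dose. Okbyeongpung-san had 2 libraries at each of the same doses, and Soyo-san had 1, so Soyo-san values are given with no test. No genotype or added TGF-beta distinguishes any group. The labels do not say whether replicates came from separate cultures, so p-values measure the spread between these libraries, which may be technical.

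TGF-beta ligands are secreted in a latent form that is stored in the matrix and set free by integrins, proteases or thrombospondin. The active ligand binds the type II receptor, which phosphorylates the type I receptor, and SMAD2 and SMAD3 then enter the nucleus with SMAD4. In lung epithelial cells this pathway is known for inducing matrix and cytoskeletal genes and for the epithelial-mesenchymal transition, in which SNAI, ZEB and TWIST factors repress junction genes and the cadherin type can change. A549 cells respond to added TGF-beta in this way and are a common model of it. The comparisons ask how these genes stand in cells given each extract and dose.

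Library totals ran from 19833106 to 38008449 counts. The 3 vehicle libraries were the shallowest (19833106 to 22327632) and had the highest mitochondrial share, 13.9 to 14.4% against 8.99 to 13.1% in the 27 treated libraries. Every comparison with vehicle carries that difference, its part in the results was not tested, and comparisons between doses of 1 extract, which do not use the vehicle, are therefore given first. Okbyeongpung-san 500 µg/mL replicate 2 had the deepest library (38008449 counts, 13.1% mitochondrial) while replicate 3 of that group had 27540403 counts and 9.73%, and for the results that rest on this pair the text says whether they held without replicate 2. The labels assign 6 libraries to a batch D (replicate 3 of Okbyeongpung-san and all Soyo-san) and 24 to a batch E, vehicle included, without saying what the letter stands for. Leaving out either replicate of an Okbyeongpung-san group leaves 1 library, whose spread is taken from the other groups. Without replicate 2 that library is of batch D. Extract and batch then cannot be told apart against vehicle, Soshiho-tang or Yijin-tang, all of batch E. Keratin genes of the epithelial marker list were abundant, but the lung differentiation markers NKX2-1, SFTPB, SFTPC and NAPSA had medians below 1 CPM (count scaled to library size, the usual counts-per-million unit). Summed markers of 10 fibroblast genes were 43.0 to 45.0 CPM in vehicle and 27.5 to 45.1 in treated libraries. Of these genes 3 reached a median of 1 CPM: COL1A1 (26.9), THY1 (6.58) and COL3A1 (5.69). COL1A2, DCN, POSTN and FAP had a median of 0. None of 7 endothelial markers and 3 of 8 immune markers (CD14, CD68, ITGAM) reached a median of 1.

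Levels of the 41 genes differed widely on a per-length scale (vehicle mean). Counts were divided by the length of the longest transcript and then scaled to the same total in every library (the transcripts-per-million unit). The keratins KRT18 (3183) and KRT8 (2861) were highest, followed by the mesenchymal filament gene VIM (1077), the integrin gene ITGB1 (987) and TGFBI (840). Between the ligands, TGFB1 stood at 92.5 and TGFB2 at 40.5. The type II receptor TGFBR2 (43.0) and the type I receptor TGFBR1 (34.6) lay close together. N-cadherin (CDH2, 50.2) exceeded E-cadherin (CDH1, 13.5). The transcription factor genes TWIST1 (1.03) and SNAI2 (0.544) and the matrix cross-linking enzyme gene LOX (0.423) were near the detection limit, with at most 58 counts in any library. In all other sentences, a level is in CPM and a difference is a log2 fold change with its standard error (SE). In bulk RNA, fewer cells of a type and less RNA per cell cannot be told apart.

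Soshiho-tang at 500 µg/mL was the condition that moved these genes most against its own low dose. Of the 41, 9 rose and 8 fell between 20 and 500 µg/mL (41.5%), against 20.6% of all 17459 genes tested (10.3% rose and 10.2% fell), at an adjusted p below 0.05 (edgeR quasi-likelihood test, Benjamini-Hochberg over all genes). Because the members were chosen with earlier results of these data known, setting these shares side by side is no test of the set. Tight-junction genes CLDN1 and OCLN and the matrix gene LTBP2 rose, while CLDN2, SNAI1, TGFB2 and TGFBR2 fell. Leaving out 1 of the 6 libraries lowered the count to 10 (without replicate 2 of 500 µg/mL), 11 (without replicate 2 of 20 µg/mL) or 13. The median log2 fold change was -0.03 for the members and 0.00 for all genes. By role, 1 of 5 ligand and latency genes rose and 2 fell, 1 of 5 receptor and SMAD genes fell, 2 of 5 classical targets rose, 2 of 10 matrix and integrin genes rose and 1 fell, 1 of 7 mesenchymal genes rose and 1 fell, and 3 of 9 epithelial genes rose and 3 fell.

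The other extracts moved fewer members between 20 and 500 µg/mL. With Yijin-tang, TGFBR2 fell and CCN1 rose (4.88% of members, 0.705% of all genes). With Okbyeongpung-san, ITGA5 rose and COL4A1 fell (4.88% of members, 1.59% of all genes), but neither call held without replicate 2 of the 500 µg/mL group, where the count was 0. Between 20 and 100 µg/mL the quasi-likelihood test called 0 members for any of the 3 extracts, and so did DESeq2. At an unadjusted p below 0.05 the counts were 4 for Soshiho-tang, 1 for Yijin-tang and 0 for Okbyeongpung-san. Of all genes, 0%, 0.0229% and 0% were called there.

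**Figure D1:**
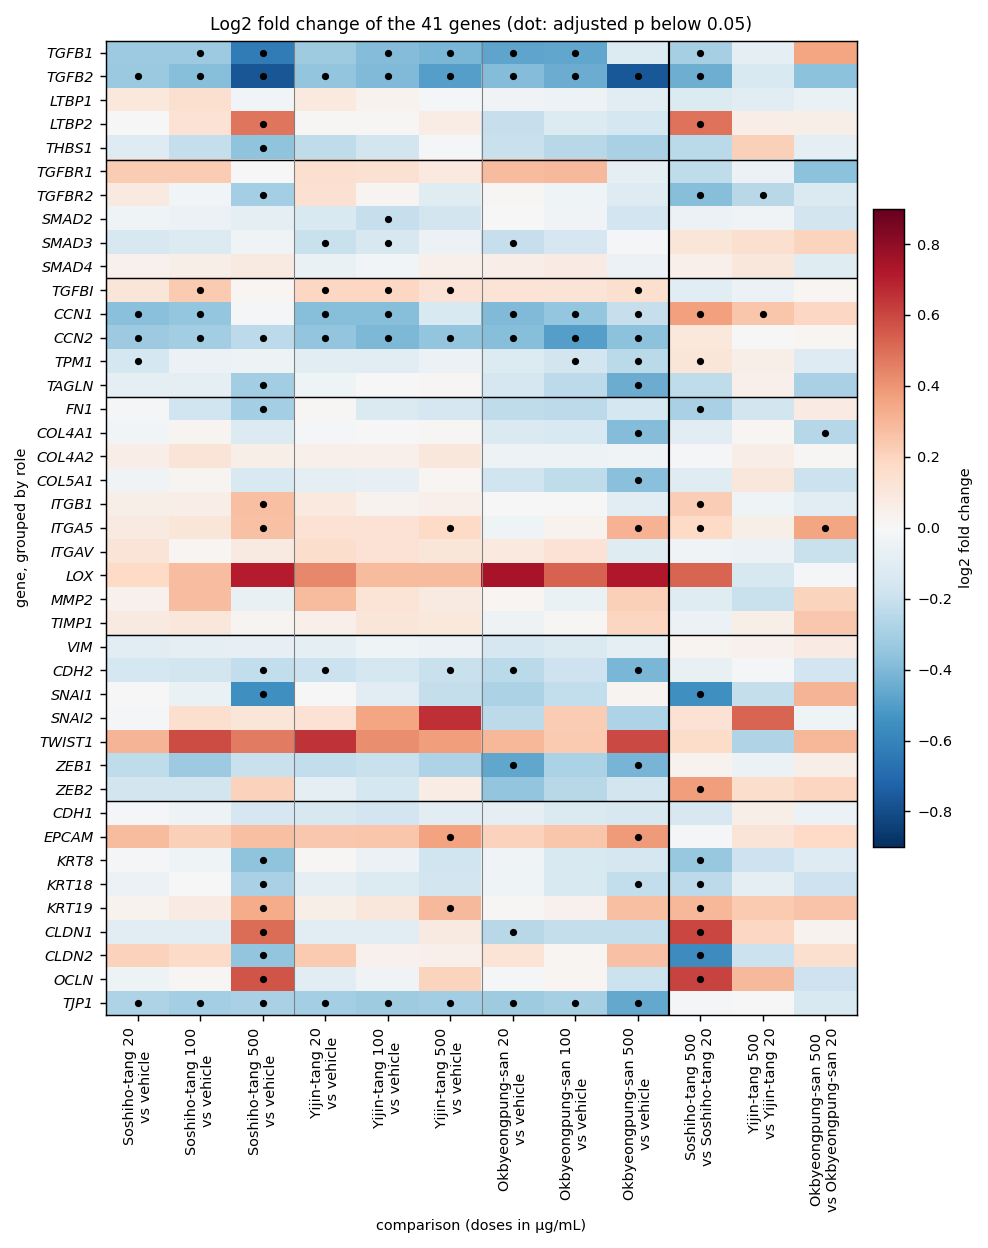
Log2 fold changes of the 41 genes (rows, ordered by role) in 12 comparisons (columns), with a dot where edgeR called the gene at an adjusted p below 0.05. The column for Soshiho-tang 500 against 20 µg/mL holds 17 dots, against 2 each for Yijin-tang and Okbyeongpung-san.

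Against vehicle, Soshiho-tang called 19 members at 500 µg/mL (6 higher, 13 lower; 33.1% of all genes were called, 17.2% higher and 16% lower), 6 at 100 µg/mL (1 and 5; 10.8% of all genes) and 5 at 20 µg/mL (0 and 5; 8.02% of all genes). For Yijin-tang the counts were 9 (4 and 5), 8 (1 and 7) and 7 (1 and 6) at 500, 100 and 20 µg/mL, where 15.7%, 14.7% and 10.2% of all genes were called. Okbyeongpung-san called 14 (3 and 11), 6 (0 and 6) and 9 (0 and 9), with 14.9% (7.19% higher and 7.76% lower), 9.49% and 10.2% of all genes. As a share of members these 9 counts run from 12.2% to 46.3%. The members' medians ran from -0.14 (Okbyeongpung-san 500 µg/mL) to 0.01 (Yijin-tang 500 µg/mL), and the medians of all genes from 0.00 to 0.02. These 9 comparisons share the 3 vehicle libraries, so a gene that is high in those libraries is low in all of them. Of the members, 5 were lower in every treated library than in vehicle and 0 were higher. The share of all genes with that pattern was not computed. Without replicate 2, Okbyeongpung-san at 500 µg/mL called 9 members, all lower, and without replicate 3 it called 21. All vehicle libraries belong to batch E, and with the libraries of batch E alone the Okbyeongpung-san counts of members were 18, 2 and 2 at 500, 100 and 20 µg/mL, against 17, 6 and 8 with batch as a term in the fit.

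**Figure D2:**
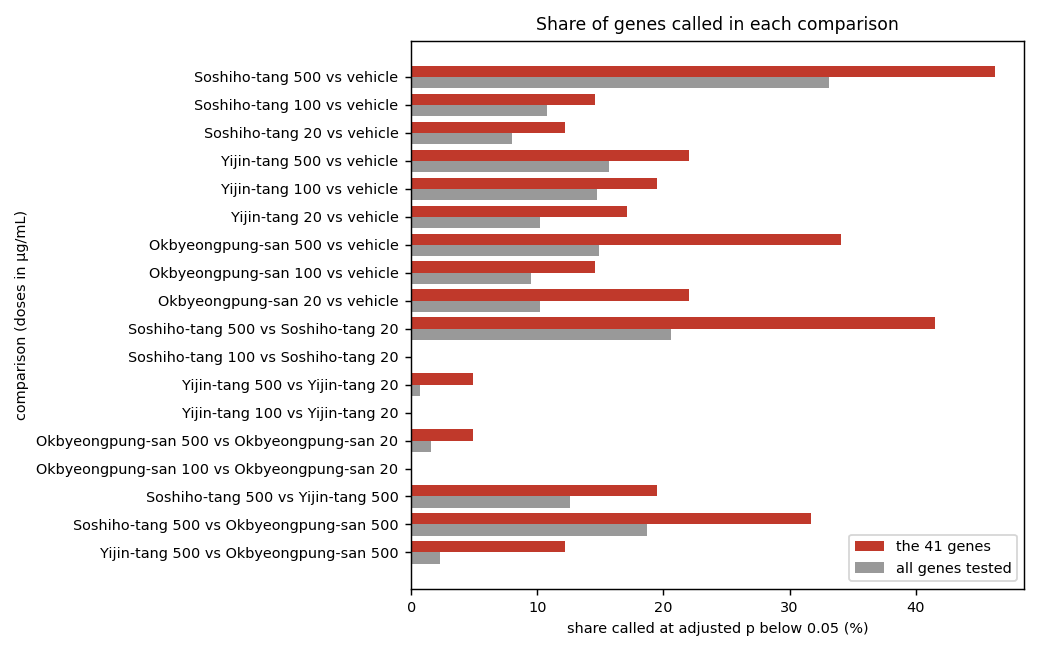
Share of the 41 genes (red) and of all genes tested (grey) called at an adjusted p below 0.05, in percent, for each of the 18 pairwise comparisons. The red bar reaches 41.5% for Soshiho-tang 500 against 20 µg/mL, where the grey bar is at 20.6%, and no bar is visible for any comparison of 100 against 20 µg/mL.

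Among the ligands, TGFB2 (chr1:218346235-218444619, plus strand, GRCh38) was lower in every treated library than in vehicle. It stood at 99.7, 100.4 and 102 CPM in vehicle and at 75.0, 79.9 and 84.1 with Soshiho-tang 20 µg/mL. At Soshiho-tang 500 µg/mL it stood at 63.2, 53.3 and 60.3, below both groups with no overlap. Libraries of that group were separate from vehicle for 50.7% of all genes and from 20 µg/mL for 38.9%. TGFB2 fell by 0.44 (SE 0.101, adjusted p = 0.00286) between the Soshiho-tang doses and by 0.77 (SE 0.102, adjusted p = 2.83e-06) against vehicle. The Okbyeongpung-san 500 µg/mL libraries were about as low, at 56.7 and 61.9 CPM. That group lay 0.76 below vehicle (SE 0.115, adjusted p = 0.000166), and without replicate 2 the log2 fold change was -0.70. The group's difference from 20 µg/mL did not pass the test (log2 fold change -0.37, 95% interval -0.63 to -0.11, adjusted p = 0.126). With Yijin-tang 500 µg/mL the values were 66.5, 77.0 and 71.3 CPM, lower than vehicle (log2 fold change -0.49, adjusted p = 0.002), while the difference from its own 20 µg/mL was -0.14 (95% interval -0.35 to 0.07). In the 9 vehicle comparisons TGFB2 fell by 0.34 to 0.77.

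The TGFB2 count shares its place with TGFB2-OT1, a non-coding RNA annotated on the same strand inside the gene, over 1371 bases. TGFB2-OT1 had 0.995, 1.49 and 0 CPM in vehicle and 2.64 to 11.9 in treated libraries, so it moved opposite to TGFB2 in the 9 vehicle comparisons (log2 fold change 2.56 to 3.40, each called). Its median count was 196, against 2040 for TGFB2. How the authors' estimate divided reads between the 2 genes is not stated. Between Soshiho-tang 20 and 500 µg/mL TGFB2-OT1 did not pass the test (log2 fold change 0.72, adjusted p = 0.252).

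TGFB1 (chr19:41301587-41353911, minus strand) stood at 119, 132 and 128 CPM in vehicle, at 100.1, 102 and 99.2 with Soshiho-tang 20 µg/mL and at 83.4, 83.8 and 77.2 at 500 µg/mL. The 500 µg/mL libraries lay below both other groups without overlap, a separation common among all genes (50.7% against vehicle, 38.9% against 20 µg/mL). Against vehicle TGFB1 fell by 0.63 (SE 0.107, adjusted p = 7.05e-05). The fall of 0.30 from 20 µg/mL (SE 0.106, adjusted p = 0.0452) was close to the threshold and was lost on leaving out any 1 of the 6 libraries, with values from -0.32 to -0.26. In the Okbyeongpung-san 500 µg/mL group replicate 2 had 136 CPM, the highest of all libraries, and replicate 3 had 94.6. TGFB1 was therefore not called there against vehicle (log2 fold change -0.12, 95% interval -0.37 to 0.12). Without replicate 2, which leaves 1 library of batch D, the log2 fold change was -0.41. It was lower than vehicle in 6 of 9 comparisons, the exceptions being Soshiho-tang 20, Yijin-tang 20 and Okbyeongpung-san 500 µg/mL. TGFB1 overlaps HNRNPUL1 and CCDC97 on the opposite strand, and whether reads were counted by strand is not stated. Both were lower than vehicle with Soshiho-tang 500 µg/mL as well, by log2 fold changes of -0.52 and -0.30, and the part of the overlap in the TGFB1 values was not tested. Between Soshiho-tang 20 and 500 µg/mL neither was called (-0.17 and -0.04).

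LTBP2, a matrix protein of the latent TGF-beta binding protein family that does not itself bind the latent ligand, was called higher than vehicle with Soshiho-tang 500 µg/mL and not in the other comparisons with vehicle. Its levels were 28.2, 27 and 27.8 CPM in vehicle, 27.2, 28.0 and 27.6 with Soshiho-tang 20 µg/mL and 39.8, 36.9 and 39.4 at 500 µg/mL. The 3 high libraries lay above all others of the series, and the share of all genes placed in this way was not computed. The rise from 20 to 500 µg/mL was 0.49 (SE 0.0578, 1.40-fold, adjusted p = 9.68e-07), and it was called on leaving out any 1 library. LTBP1, which does bind latent TGF-beta, was called in none of the 18 comparisons (49.0 to 62.1 CPM in treated libraries). THBS1, encoding thrombospondin-1, an activator of latent TGF-beta, stood at 172, 170 and 168 CPM in vehicle and at 142, 129 and 125 with Soshiho-tang 500 µg/mL, and fell by 0.36 (SE 0.0913, adjusted p = 0.00354). Against Soshiho-tang 20 µg/mL (158, 150 and 161 CPM) it did not pass the test (log2 fold change -0.24, 95% interval -0.43 to -0.06, adjusted p = 0.0595). The THBS1 libraries did not overlap there, which was so for 38.9% of all genes. With Yijin-tang 500 µg/mL THBS1 had 166, 170 and 167 CPM, close to the vehicle libraries.

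**Figure D3:**
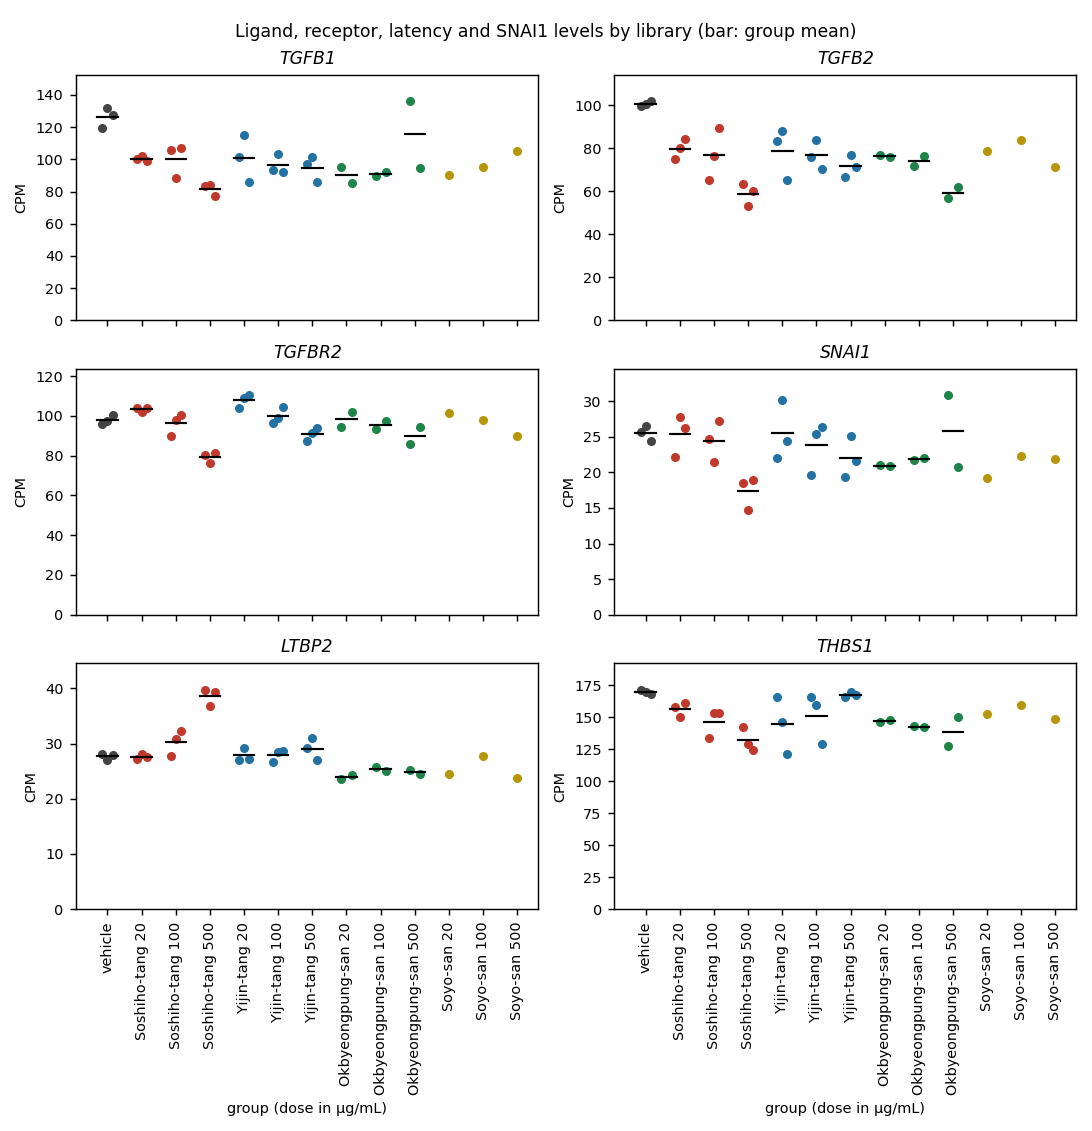
CPM of TGFB1, TGFB2, TGFBR2, SNAI1, LTBP2 and THBS1 in each library (points), by group, with the group mean as a bar and the vertical axis starting at 0. Every treated point of TGFB2 lies below the vehicle points, and the LTBP2 points of Soshiho-tang 500 µg/mL, at 36.9 to 39.8 CPM, lie above all others.

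Of the receptors and SMADs, TGFBR2 (chr3:30606502-30694142, plus strand), the ligand-binding type II receptor, fell at the highest Soshiho-tang dose. It stood at 96.0, 97.3 and 100.3 CPM in vehicle, at 104, 102 and 104 with Soshiho-tang 20 µg/mL and at 80.1, 76.4 and 81.3 at 500 µg/mL. The libraries of the highest dose lay below the rest of the series. How many of all genes lay outside the whole series was not computed, and 50.7% were separate from vehicle and 38.9% from 20 µg/mL. The fall from 20 µg/mL was 0.38 (SE 0.0515, adjusted p = 6.38e-06), and from vehicle 0.30 (SE 0.0521, adjusted p = 8.15e-05). With Yijin-tang it went from 104, 109 and 110 CPM at 20 µg/mL to 87.1, 91.2 and 94.0 at 500 µg/mL, a fall of 0.25 (SE 0.0511, adjusted p = 0.0134) that was called in 2 of 6 fits with 1 library left out. With Okbyeongpung-san the difference between these doses was -0.13 (95% interval -0.26 to 0.00, adjusted p = 0.291).

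SMAD3, the receptor-activated SMAD that binds DNA, varied little. It stood at 346, 343 and 346 CPM in vehicle and between 278 and 346 in treated libraries. Soshiho-tang 500 µg/mL differed from vehicle by -0.03 (95% interval -0.13 to 0.07) and from 20 µg/mL by 0.11 (95% interval 0.01 to 0.21, adjusted p = 0.126). It was lower than vehicle with Yijin-tang at 20 and 100 µg/mL (log2 fold changes -0.20 and -0.14) and with Okbyeongpung-san at 20 µg/mL (-0.21). SMAD2, its partner in the pathway, was lower only with Yijin-tang 100 µg/mL (-0.21). The common partner SMAD4 and the type I receptor TGFBR1 were called in none of the 18 comparisons.

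Of the 5 classical targets, 2 or 3 were called in 8 of the 9 comparisons with vehicle. In those 8 the share of all genes called ran from 8.02% (Soshiho-tang 20 µg/mL) to 33.1% (Soshiho-tang 500 µg/mL). With Soshiho-tang 100 µg/mL and each Yijin-tang dose 1 target, TGFBI, was called higher, and the other calls were lower. With Okbyeongpung-san 500 µg/mL all 5 were called, 4 lower and 1 higher (median log2 fold change -0.24, all genes 0.02; 14.9% of all genes were called), but the calls of TGFBI, CCN1 and CCN2 were lost without replicate 2. CCN2, which encodes connective tissue growth factor, was lower than vehicle in all 9 comparisons, by 0.23 to 0.50. The vehicle libraries had 36.0, 35.3 and 35.5 CPM and the 27 treated libraries 23.6 to 33.2, a separation whose share of all genes was not computed. Between Soshiho-tang 20 and 500 µg/mL it differed by 0.09 (95% interval -0.08 to 0.27) and was not called. At 500 µg/mL the call against vehicle held on leaving out 1 of the 6 libraries and was lost for the other 5. CCN1, a related matricellular gene, stood at 34.2, 35.8 and 36.2 CPM in vehicle, fell to 27.8, 26.5 and 27.3 with Soshiho-tang 20 µg/mL and was at 31.0, 36.3 and 37.9 at 500 µg/mL. The rise between the doses was 0.37 (SE 0.0595, adjusted p = 6.55e-05), which brought CCN1 back to within -0.01 of vehicle (95% interval -0.13 to 0.11). CCN1 also rose with the Yijin-tang dose (0.25, SE 0.0592, adjusted p = 0.0496), a call that held in 1 of 6 fits with a library left out.

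The promoter window of CCN2 is shown because it is known for response elements of TEAD factors, which YAP binds, and that of TGFB2 because this gene was lower in the same comparisons. Both windows are RefSeq sequence (GRCh38.p14) from 250 bases before to 50 after an annotated start, 5′ to 3′ on the gene's strand. Capitals mark the TEAD motif GGAATG, or CATTCC where it lies on the opposite strand.
CCN2 chr6:131951323-131951622 (-): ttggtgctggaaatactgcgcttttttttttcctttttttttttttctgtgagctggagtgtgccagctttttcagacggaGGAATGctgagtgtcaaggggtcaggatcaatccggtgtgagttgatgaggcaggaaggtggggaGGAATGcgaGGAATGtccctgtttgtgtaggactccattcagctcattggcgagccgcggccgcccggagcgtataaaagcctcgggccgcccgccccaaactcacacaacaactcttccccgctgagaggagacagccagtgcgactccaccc
TGFB2 chr1:218345086-218345385 (+): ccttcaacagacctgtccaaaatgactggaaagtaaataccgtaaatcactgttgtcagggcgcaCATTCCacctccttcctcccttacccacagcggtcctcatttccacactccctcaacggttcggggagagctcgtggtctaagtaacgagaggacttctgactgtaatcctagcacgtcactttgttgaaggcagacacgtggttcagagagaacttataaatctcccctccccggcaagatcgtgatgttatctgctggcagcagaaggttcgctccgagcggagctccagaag
CCN2 held 3 matches, at -169, -104 and -95 from the start, and this TGFB2 window held 1, at -185. TJP1, also lower in every comparison with vehicle, held no match in any of its windows, which are not shown. The motif was found on either strand in 14.0% of 35116 windows of all genes and in 8 of the 63 windows of the 31 members that had one (12.7%). A match is a description of letters, not a bound site.

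The cytoskeletal targets and TGFBI took other courses. TGFBI, a secreted matrix protein named for its induction by TGF-beta, was higher than vehicle in 5 of 9 comparisons by 0.13 to 0.23, and at Soshiho-tang 500 µg/mL it was not called. Tropomyosin TPM1 was lower than vehicle in 3 comparisons, by 0.16 to 0.24, and its rise between Soshiho-tang doses (0.11, adjusted p = 0.0471) was lost on leaving out any 1 library. TAGLN, encoding the actin-binding protein transgelin, had 34.1, 35.5 and 34.9 CPM in vehicle, 28.3, 27.3 and 28.4 with Soshiho-tang 500 µg/mL and 27.6 and 23.4 with Okbyeongpung-san 500 µg/mL. Both groups lay below vehicle, by 0.31 (adjusted p = 0.0178) and 0.44 (adjusted p = 0.0106). Without replicate 2 the Okbyeongpung-san value was -0.57. TAGLN overlaps PCSK7 on the opposite strand over 446 bases, and PCSK7 was lower than vehicle by about as much with Soshiho-tang 500 µg/mL (-0.30, adjusted p = 0.00258). The part of the overlap in the TAGLN values was not tested.

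Matrix and integrin genes changed by small amounts. Fibronectin (FN1), the main matrix ligand of the integrin made of ITGA5 and ITGB1, stood at 1219, 1164 and 1193 CPM in vehicle, at 1068, 1183 and 1288 with Soshiho-tang 20 µg/mL and at 968, 837 and 1090 at 500 µg/mL. The 500 µg/mL values lay below vehicle but overlapped those of 20 µg/mL. FN1 fell by 0.30 against vehicle (SE 0.103, adjusted p = 0.0254) and by 0.29 between doses (SE 0.103, adjusted p = 0.0481), and each call was lost in 4 of 6 fits with 1 library left out. The 2 integrin genes rose: ITGB1 stood at 1827, 1922 and 1969 CPM at 20 µg/mL and 2177, 2133 and 2341 at 500 µg/mL (log2 fold change 0.22, adjusted p = 0.00714). ITGA5 rose by 0.18 (adjusted p = 0.0154) from 20 to 500 µg/mL of Soshiho-tang. With Okbyeongpung-san it went from 58.3 and 56.9 CPM to 78.9 and 68.1 (log2 fold change 0.35, adjusted p = 0.0047).

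The basement membrane collagen gene COL4A1 was lowest with Okbyeongpung-san 500 µg/mL. It had 67.2, 67.6 and 70.0 CPM in vehicle, 63.9 and 60.3 with Okbyeongpung-san 20 µg/mL and 50.6 and 53.3 at 500 µg/mL. It was 0.39 below vehicle (SE 0.0575, adjusted p = 0.00012), a call kept on leaving out any 1 of the 5 libraries. The fibrillar collagen gene COL5A1 was also lower there, by 0.37 (adjusted p = 0.0114), but the call was lost without replicate 2. COL4A2, ITGAV, LOX, MMP2 and TIMP1 were called in none of the 18 comparisons. LOX overlaps SRFBP1 on the opposite strand over 12376 bases, and SRFBP1 had a median of 448 counts against 39 for LOX.

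**Figure D4:**
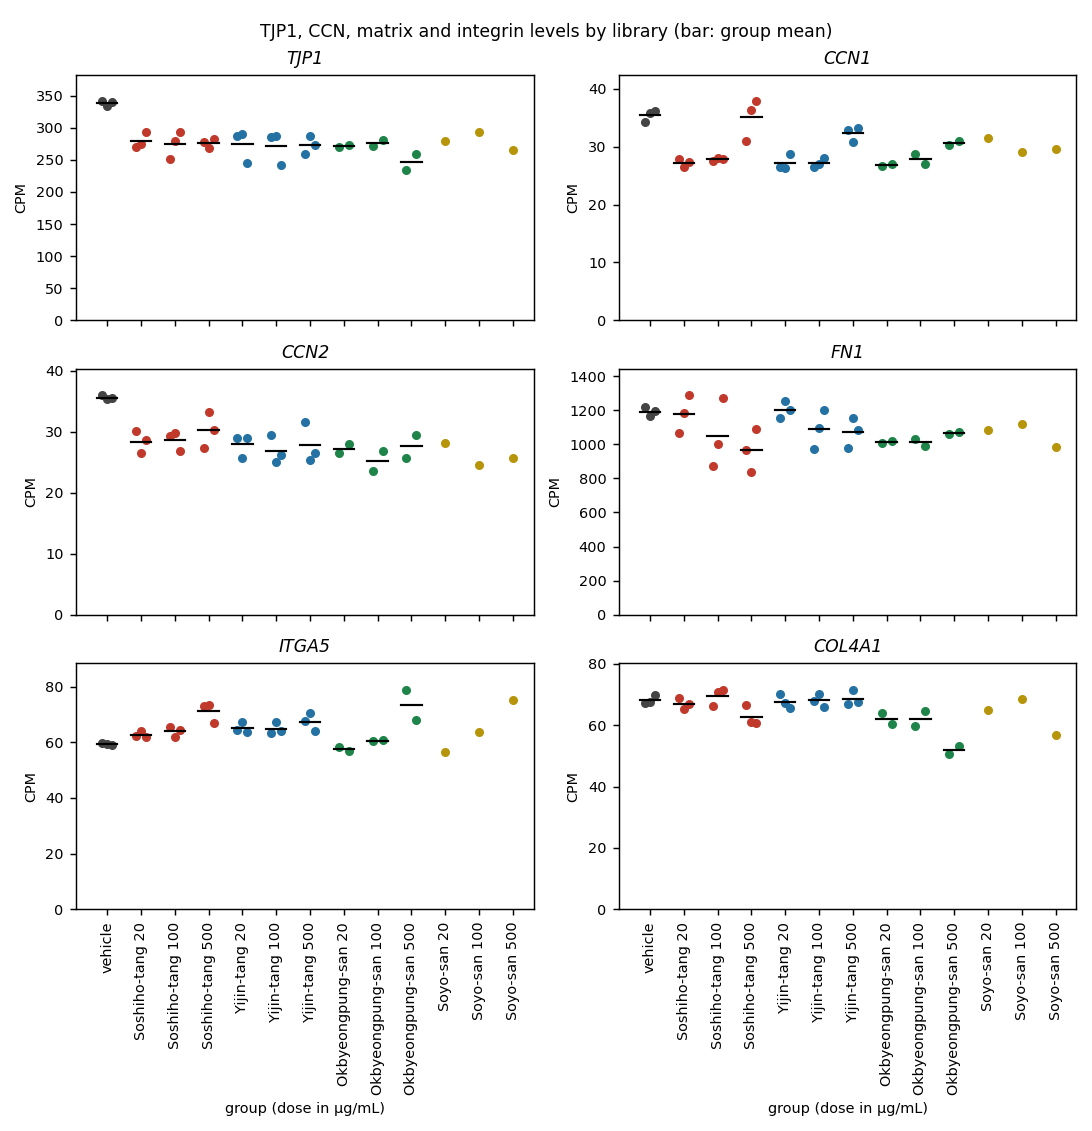
CPM of TJP1, CCN1, CCN2, FN1, ITGA5 and COL4A1 in each library (points), by group, with the group mean as a bar and the vertical axis starting at 0. The vehicle points of TJP1 and CCN2 stand above all treated points, and the COL4A1 points of Okbyeongpung-san 500 µg/mL, at 50.6 and 53.3 CPM, are the lowest.

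Among the mesenchymal genes, the repressor SNAI1 fell at the highest Soshiho-tang dose. It stood at 25.7, 26.6 and 24.4 CPM in vehicle, 22.2, 27.8 and 26.2 with 20 µg/mL and 18.5, 14.7 and 19.0 with 500 µg/mL. The highest dose did not overlap with either group, as was so for 50.7% (vehicle) and 38.9% (20 µg/mL) of all genes. The fall was 0.55 from 20 µg/mL (SE 0.143, adjusted p = 0.00732) and 0.55 from vehicle (SE 0.147, adjusted p = 0.0051). The difference between doses was not called without replicate 2 of the 500 µg/mL group (-0.44, adjusted p = 0.062) or of the 20 µg/mL group (-0.47, adjusted p = 0.0521).

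The structural mesenchymal genes moved less. Vimentin (VIM) was called in none of the 18 comparisons, with 957, 1004 and 1011 CPM in vehicle and 869 to 1008 in treated libraries. Between Soshiho-tang doses it differed by 0.03 (95% interval -0.08 to 0.14). N-cadherin (CDH2) had 107, 108 and 106 CPM in vehicle and 76.2 to 102 in treated libraries. It was lower than vehicle in 5 of 9 comparisons, most with Okbyeongpung-san 500 µg/mL (76.2 and 84.7 CPM; log2 fold change -0.41, SE 0.0647, adjusted p = 0.000258), where the call held without either replicate.

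The ZEB factors are repressors of CDH1. ZEB1 stood at 36.8, 33.4 and 37.0 CPM in vehicle, and Okbyeongpung-san had 24.5 and 27.1 at 20 µg/mL and 25.1 and 28.4 at 500 µg/mL. Both groups were lower than vehicle (-0.47 and -0.42), although the call at 500 µg/mL was lost without replicate 2 (-0.33, adjusted p = 0.22). ZEB2 rose between Soshiho-tang doses by 0.38 (adjusted p = 0.0189) with overlapping libraries, and the call was lost on leaving out each of 3 libraries in turn. SNAI2 and TWIST1 were called nowhere, at 6 to 34 and 11 to 52 counts per library.

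The epithelial genes held the largest rises and the largest fall between the Soshiho-tang doses. Claudin-1 (CLDN1, chr3:190305701-190322475, minus strand), a sealing claudin of tight junctions, had 105, 95.6 and 97.2 CPM in vehicle, 89.2, 92.4 and 96.8 with Soshiho-tang 20 µg/mL and 132, 139.9 and 150.0 at 500 µg/mL. The rise from 20 µg/mL was 0.60 (SE 0.0663, 1.52-fold, adjusted p = 2.98e-07). Occludin (OCLN, chr5:69492292-69558104, plus strand), a membrane protein of the same junctions, had 18.3, 18.3 and 19.4 CPM in vehicle, 18.6, 18.3 and 17.4 at 20 µg/mL and 27.8, 29.4 and 25.6 at 500 µg/mL. It rose by 0.61 (SE 0.0943, 1.52-fold, adjusted p = 3.9e-05). For both genes the 3 libraries of Soshiho-tang 500 µg/mL lay above the rest of the series, and the calls held on leaving out any 1 library. The share of all genes outside the whole series was not computed, and 38.9% were separate from 20 µg/mL. Claudin-2 (CLDN2, chrX:106900164-106930861, plus strand), a claudin that forms cation pores, went the other way, with 31.6, 30.1 and 32.2 CPM in vehicle, 31.7, 35.5 and 41.3 at 20 µg/mL and 23.8, 21.0 and 28.4 at 500 µg/mL. It fell by 0.57 (SE 0.107, 0.675-fold, adjusted p = 0.000386), without overlap, as was so for 38.9% of all genes. CLDN2 overlaps MORC4 on the opposite strand, and MORC4 rose between these doses (0.28, adjusted p = 0.000196).

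SNAI and ZEB proteins bind E-boxes with the core CACCTG, so the windows of the 2 junction genes that rose together are shown, with that core in capitals, as CAGGTG where it lies on the opposite strand.
OCLN chr5:69492540-69492839 (+): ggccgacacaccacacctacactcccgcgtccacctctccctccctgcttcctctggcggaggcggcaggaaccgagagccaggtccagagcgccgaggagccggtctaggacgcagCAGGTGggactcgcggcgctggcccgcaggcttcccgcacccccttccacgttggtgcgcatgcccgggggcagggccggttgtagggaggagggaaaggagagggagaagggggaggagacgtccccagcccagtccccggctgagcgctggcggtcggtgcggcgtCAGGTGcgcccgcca
CLDN1 chr3:190322397-190322696 (-): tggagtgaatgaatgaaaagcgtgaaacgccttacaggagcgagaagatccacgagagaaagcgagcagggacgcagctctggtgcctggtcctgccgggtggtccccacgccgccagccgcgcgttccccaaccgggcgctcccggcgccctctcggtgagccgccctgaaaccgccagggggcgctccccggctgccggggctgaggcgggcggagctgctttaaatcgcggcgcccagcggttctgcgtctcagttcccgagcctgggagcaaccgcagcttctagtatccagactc
This OCLN window held the core at -133 and +36 from the start, and the CLDN1 window did not hold these letters. Of all windows 20.6% held the core on either strand, against 11 of the members' 63 (17.5%). The SMAD element CCAGACA was in 4.78% of all windows and 3 of the members', and the AP-1 element TGACTCA in 4.95% and 3. No match in a window says only that these letters are not there.

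The keratins split. The simple-epithelial pair KRT8 and KRT18 fell between Soshiho-tang doses: KRT8 went from 3364, 3518 and 3291 CPM to 2834, 2608 and 2576 (log2 fold change -0.34, SE 0.0927, adjusted p = 0.00945). KRT18 fell by 0.24 (adjusted p = 0.0104), and the pair overlaps on opposite strands over 1084 bases. KRT19, another type I keratin of simple epithelia, rose from 28.0, 27.9 and 26.0 CPM to 37.2, 32.8 and 30.8 (log2 fold change 0.30, SE 0.0952, adjusted p = 0.0264). The KRT8 call was lost without replicate 2 of 20 µg/mL, the KRT18 call for 2 of the 6 libraries and the KRT19 call for 3.

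E-cadherin (CDH1), the defining adherens-junction protein of epithelia, was called in none of the 18 comparisons. It had 32.8, 33.5 and 31.4 CPM in vehicle, 29.8, 26.6 and 31.3 with Soshiho-tang 500 µg/mL and 26.6 to 34.5 over the treated libraries. Its difference was -0.14 between Soshiho-tang doses (95% interval -0.28 to 0.00) and -0.15 against vehicle (95% interval -0.30 to -0.01, adjusted p = 0.0975). The scaffold protein gene TJP1, encoding ZO-1, stood at 342, 334 and 341 CPM in vehicle and at 234 to 294 in the treated libraries. TJP1 was lower in all 9 vehicle comparisons, by 0.28 to 0.46, and differed between Soshiho-tang 20 and 500 µg/mL by -0.02 (95% interval -0.16 to 0.13). EPCAM was higher than vehicle with Yijin-tang and Okbyeongpung-san at 500 µg/mL (0.37 and 0.38), at 3.90 to 5.17 CPM in vehicle. The Okbyeongpung-san libraries had 6.34 CPM in replicate 2 and 5.38 in replicate 3, and the call was lost without replicate 2.

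**Figure D5:**
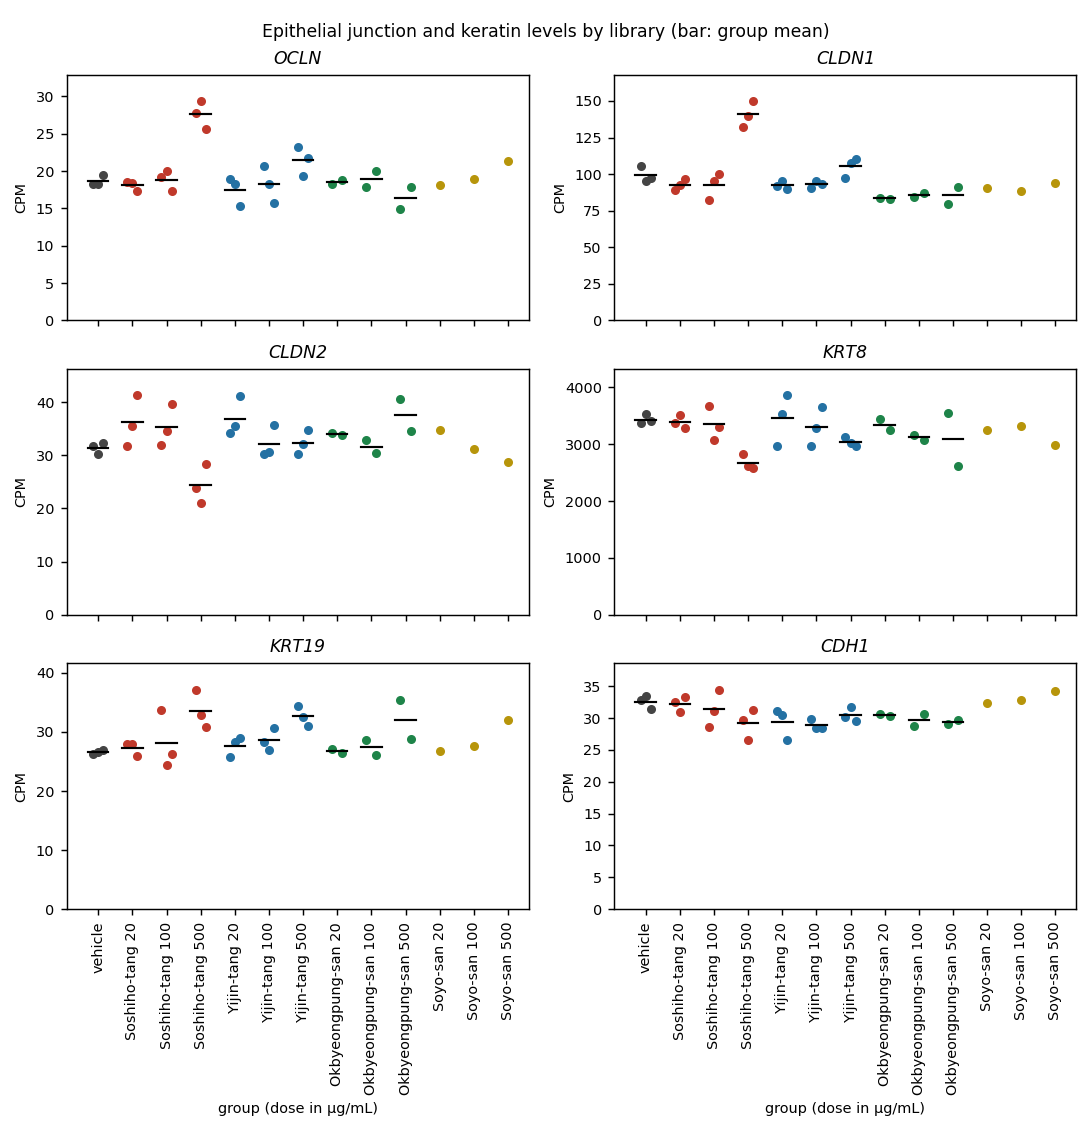
CPM of OCLN, CLDN1, CLDN2, KRT8, KRT19 and CDH1 in each library (points), by group, with the group mean as a bar and the vertical axis starting at 0. The OCLN and CLDN1 points of Soshiho-tang 500 µg/mL stand above all others (25.6 to 29.4 and 132 to 150.0 CPM), while the CDH1 points run from 26.6 to 34.5 CPM.

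The extracts were compared at the matched dose of 500 µg/mL in 3 pairs, with p-values adjusted over all genes within each pair. Soshiho-tang and Yijin-tang differed in 8 members (4 higher and 4 lower with Soshiho-tang; 12.6% of all genes were called). CLDN1 (0.42), LTBP2 (0.42), OCLN (0.36) and ITGB1 (0.23) were higher with Soshiho-tang, and CLDN2 (-0.40), THBS1 (-0.34), TAGLN (-0.32) and TGFBR2 (-0.19) were lower. CLDN1 and LTBP2 held on leaving out any 1 of the 6 libraries. Against Okbyeongpung-san, Soshiho-tang differed in 13 members (9 higher, 4 lower; 18.7% of all genes), led by OCLN (0.76), CLDN1 (0.72) and LTBP2 (0.64), and by CLDN2 (-0.62), SNAI1 (-0.58) and TGFB1 (-0.51). Without Okbyeongpung-san replicate 2 the count was 7, with TGFB1 at -0.21 and SNAI1 at -0.25, both not called. Yijin-tang was higher than Okbyeongpung-san in 5 members and lower in 0 (2.31% of all genes): TAGLN (0.45), COL4A1 (0.40), COL5A1 (0.39), CLDN1 (0.30) and TPM1 (0.19). Of these, COL4A1 held on leaving out any 1 library, and without replicate 2 it was the only member called.

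The change from 20 to 500 µg/mL was itself compared between extracts, as an interaction. Soshiho-tang differed from Yijin-tang in 3 members (4.04% of all genes) and from Okbyeongpung-san in 8 (7.01% of all genes). Yijin-tang differed from Okbyeongpung-san in 0 by the quasi-likelihood test and by DESeq2 (0.16% of all genes; 10 at an unadjusted p below 0.05). The dose effect on LTBP2 was larger with Soshiho-tang than with Yijin-tang by 0.43 (SE 0.0819, adjusted p = 0.00208) and than with Okbyeongpung-san by 0.43 (SE 0.0931, adjusted p = 0.00472). For CLDN1 these differences were 0.41 (SE 0.0936, adjusted p = 0.00951) and 0.57 (SE 0.105, adjusted p = 0.00118). OCLN differed from Okbyeongpung-san by 0.79 (SE 0.152, adjusted p = 0.00169). Within Yijin-tang the dose effects were 0.19 for CLDN1 (95% interval 0.05 to 0.32) and 0.29 for OCLN (95% interval 0.10 to 0.49), and neither was called.

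Soyo-san, with 1 library a dose, gave values within the range of the other treated libraries for most of the genes named. At 20, 100 and 500 µg/mL, TGFB2 stood at 78.7, 83.6 and 71.0 CPM and TGFBR2 at 101, 98.1 and 89.9 CPM. LTBP2 had 24.5, 27.8 and 23.8 CPM, below the levels of Soshiho-tang 500 µg/mL. CLDN1 had 90.6, 88.4 and 93.6 CPM and OCLN 18.2, 19.0 and 21.4. ITGA5 went from 56.6 to 63.6 and 75.1 CPM, and its value at 500 µg/mL lay within the 64.2 to 78.9 CPM of the other extracts at that dose.

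The other genes of these pathways were read from 10 lists of 193 genes that leave out the members. Between 20 and 500 µg/mL of Soshiho-tang, 20.6% of all genes were called (10.3% higher and 10.2% lower). Of the YAP and TEAD responsive genes 7 of 13 rose and 1 fell (61.5% called; median log2 fold change 0.15, all genes 0.00). Among matrix enzymes and inhibitors, 9 of 25 rose and 3 fell (48%), and among cytoskeleton and focal adhesion genes 2 of 25 rose and 10 fell (48%; median -0.21). Of 12 further mesenchymal genes 4 rose and 2 fell (50%), of 9 integrins 3 rose and 1 fell (44.4%), of 6 further ligand genes 2 rose and 3 fell (83.3%), and of 17 receptor and SMAD genes 2 rose and 4 fell (35.3%). The TGF-beta responsive genes (25%; 3 of 16 rose and 1 fell), matrix genes (24%; 4 of 25 rose and 2 fell) and junction and keratin genes (26.7%; 2 of 30 rose and 6 fell) lay near the share of all genes. Against vehicle, the YAP and TEAD list had a median of -0.20 with Soshiho-tang 20 µg/mL (0 higher, 5 lower; 8.02% of all genes called). At 500 µg/mL its median was -0.18, still below vehicle, while 4 of its genes were called higher than vehicle and 4 lower (33.1% of all genes called).

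Single genes of those lists moved more than any member between these doses. The collagen- and laminin-binding integrin gene ITGA2 (log2 fold change 0.93), the laminin-binding integrin gene ITGA3 (0.90) and the protease gene PLAU (0.74) rose. The desmosomal genes JUP (-0.66) and DSP (-0.54), the co-receptor gene TGFBR3 (-0.51) and the collagen gene COL1A1 (-0.57) fell. Of these, JUP moved more than any member and the others did not. The feedback inhibitors SMAD7 (0.07, adjusted p = 0.519) and PMEPA1 (0.02, adjusted p = 0.797) and the YAP target ANKRD1 (0.24, adjusted p = 0.133) were not called. JUP was also lower between these doses of Yijin-tang (-0.47).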

How the data were processed

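RNA of A549 cells treated for 24 h was made into 30 directional mRNA libraries and read as paired ends, per the labels' protocols. The authors deposited 1 table of expected counts per gene, which RSEM makes by dividing reads that fit several transcripts among them. FastQC 0.11.9, Trim Galore 0.6.5, STAR 2.7.3a, RSEM 1.3.3 and the build hg38 (GRCh38) are named in the submitters' processing notes. Which annotation release was used, and whether reads were counted by strand, is not given in the sources used here. In each library 9.09 to 11.6% of the values of all gene rows, zeros included, were not whole, and they were rounded. A further 30 empty columns were not used.

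Groups came from the sample titles. Rows were matched to symbols by Ensembl identifier (41209 with a symbol). edgeR 4.0.16 (R 4.3.3) was run with TMM scaling, filterByExpr and the quasi-likelihood test on 27 libraries in 10 groups and 17459 genes, with Soyo-san left out because it has 1 library a dose. Benjamini-Hochberg adjustment ran over all genes, and a call is an adjusted p below 0.05. The SE was derived from the log2 fold change and the F statistic (their ratio, after taking the root of F), and the 95% interval uses the fit's degrees of freedom. The common dispersion corresponded to a variation of 6.89% between replicates. CPM values use TMM factors over all 30 libraries. The script was tested on simulated counts. Positions are from GENCODE 29, overlaps likewise, and promoter windows of 300 bases from RefSeq, GRCh38.p14 (31 of 41 members matched).

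The members and lists were chosen with earlier results of these data known. Genes with values in every library were those called with an absolute log2 fold change of at least 0.4 in a comparison of 500 µg/mL with vehicle or with 20 µg/mL, plus TGFBR2, SMAD3, FN1, VIM and CDH1. THBS1, CCN1, CCN2, KRT8, KRT19, ITGB1, ITGA5 and COL4A1 were added after their values were seen. Alternatives were RLE size factors, DESeq2 1.42.0, no filter, mitochondrial genes left out of library sizes, a replicate block, a batch term, a length and GC offset, only the compared groups, and each library left out in turn. Fits with batch E libraries alone or without vehicle were chosen after seeing the data. Same-numbered libraries deviated together, with every correlation over 0.1, only between Yijin-tang 100 and 20 µg/mL (0.305, 0.122 and 0.206), so replicate numbers were not treated as pairs elsewhere. Some genes of the lists are not reported here.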

Additional observations from a re-analysis of the deposited data

Results flagged for a closer look

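These values are differences in the change from 20 to 500 µg/mL between 2 extracts, each tested as an interaction by edgeR's quasi-likelihood test with Benjamini-Hochberg adjustment over all genes. They are set apart because the difference itself passed the test.

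Between Soshiho-tang and Yijin-tang, the dose effect was higher with Soshiho-tang for CLDN1 by 0.41 and for LTBP2 by 0.43 on the log2 scale, and these 2 calls held on leaving out any 1 of 12 libraries. For THBS1 it was lower (-0.46, SE 0.128, adjusted p = 0.0421), a call that held in 2 of the 12 such fits.

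Between Soshiho-tang and Okbyeongpung-san, OCLN (0.79), CLDN1 (0.57), LTBP2 (0.43), ITGB1 (0.31) and TPM1 (0.23) had a higher dose effect with Soshiho-tang. SNAI1 (-0.85), CLDN2 (-0.71) and TGFB1 (-0.65) had a lower one. Without replicate 2 of Okbyeongpung-san 500 µg/mL, the calls held for OCLN (0.67, adjusted p = 0.0261), CLDN1 (0.48, adjusted p = 0.02) and LTBP2 (0.46, adjusted p = 0.0175). They were lost for SNAI1 (-0.53, adjusted p = 0.285), CLDN2 (-0.59, adjusted p = 0.103), TGFB1 (-0.36, adjusted p = 0.27), ITGB1 (0.18, adjusted p = 0.329) and TPM1 (0.21, adjusted p = 0.124).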

How the results depend on the processing

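The values are counts of members called. The count for Soshiho-tang 500 against 20 µg/mL (17) and against vehicle (19) stayed within 1.5 times under every alternative other than leaving out 1 library. On leaving out 1 library these counts ran from 10 to 13, a drop of more than 1.5 times at the lowest, and from 16 to 19. With the replicate block they were 17 and 20, and the block changed no count of members called by more than 1.5 times. For Yijin-tang 100 against 20 µg/mL, where the numbers pair the libraries, the block left 0 members called.

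Other alternatives moved the following counts of members by more than 1.5 times. DESeq2 called 10 members for Okbyeongpung-san 100 µg/mL and 8 for Soshiho-tang 20 µg/mL against vehicle. The length and GC offset gave, against vehicle, 12 members for Okbyeongpung-san 100, 13 for Soshiho-tang 100, 9 for Soshiho-tang 20 and 14 for Yijin-tang 20 µg/mL. It gave 5 for Okbyeongpung-san and 4 for Yijin-tang between 500 and 20 µg/mL, and 1 for the dose effect of Yijin-tang against Okbyeongpung-san. With only the compared groups fitted, Okbyeongpung-san 500 µg/mL called 6 members and Yijin-tang 500 µg/mL 14 against vehicle, and both extracts called 0 between 500 and 20 µg/mL.

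Batch E libraries alone, which leave 1 Okbyeongpung-san library a dose that is assumed to vary like the others, gave 2 members each for Okbyeongpung-san 100 and 20 µg/mL against vehicle, 5 for its 500 against 20 µg/mL, 13 for Yijin-tang against Okbyeongpung-san at 500 µg/mL and 3 for their dose effect. The batch term gave 10 members for Yijin-tang against Okbyeongpung-san at 500 µg/mL, no filter gave 9 (4 for Okbyeongpung-san 500 against 20 µg/mL, 3 for the dose effect), and leaving vehicle out gave 3 (1 for Okbyeongpung-san 500 against 20 µg/mL). Yijin-tang 500 against 20 µg/mL called 1 member under each of these 4 settings. The cause of these shifts was not tested.

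On leaving out 1 library, the members called against vehicle ran from 2 to 7 and 1 to 5 (Soshiho-tang 100 and 20 µg/mL), 4 to 6, 4 to 8 and 2 to 8 (Yijin-tang 500, 100 and 20), and 9 to 21, 1 to 6 and 1 to 6 (Okbyeongpung-san 500, 100 and 20). Between 500 and 20 µg/mL they ran from 0 to 1 (Yijin-tang) and 0 to 13 (Okbyeongpung-san), and stayed at 0 between 100 and 20 µg/mL. At 500 µg/mL they ran from 3 to 7 (Soshiho-tang against Yijin-tang), 7 to 18 (Soshiho-tang against Okbyeongpung-san) and 1 to 13 (Yijin-tang against Okbyeongpung-san). For the dose effects the members called were 2 to 3, 3 to 12 and 0 to 7 in the same order. Depth limits SNAI2, TWIST1 and LOX, which had at most 58 counts in a library.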
